A study of Pyrus betulifolia with 6 samples.

Results

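The water channels of the PIP, TIP and SIP types are the members of the aquaporin family described here in root tips of P. betulaefolia, a pear rootstock, under short-term boron (B) deficiency. The rule for the genes used their database description, which had to contain the word aquaporin and not NIP, and 30 of the 37815 genes in the deposited table met this rule. They comprise 6 PIP1, 6 PIP2, 12 TIP and 5 SIP genes and 1 gene described only as aquaporin-like. Wild-type seedlings were kept for 24 h in nutrient solution with 0 mM B (B deficiency) or with 0.045 mM B (control), and root tips gave 3 libraries per group. No other agent or allele separated the groups, and all plants were raised from seed under the same conditions.

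Aquaporins are membrane pores through which water and some small neutral molecules pass. PIPs (plasma membrane intrinsic proteins) sit mainly in the plasma membrane, TIPs (tonoplast intrinsic proteins) in the membrane of the vacuole, and SIPs (small basic intrinsic proteins) in the endoplasmic reticulum. In roots, PIPs carry much of the water that crosses cells on its way to the xylem, whereas TIPs let the vacuole exchange water with the cytosol. The NIP type, which holds the boric acid channel NIP5-1, is not part of this group of genes. Some water channels let boric acid through when tested in other systems, among them PIP proteins of rice, and TIP5-1 raised the tolerance of Arabidopsis to excess B when overexpressed.

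The deposited values are FPKM, which correct the fragments of a gene for its length and for the depth of the library, so that levels of different genes can be compared. The groups were compared by limma on the scale log2(FPKM + 0.1), over the 28129 genes whose mean reached 0.5 FPKM, with Benjamini-Hochberg adjustment over all of them. In the following, a gene rose or fell where its adjusted p was under 0.05, and it was called where it also changed at least 2-fold. The labels describe the libraries as biological replicates without saying whether they came from separate boxes of plants, so the p-values measure the spread between these libraries. By the study's methods, several plants shared a box, and B was set in the solution of the box. Neither source says how many boxes each group had. If libraries of a group shared a box, its effect and that of B cannot be told apart. B deficiency library 2 stood apart from the other libraries of its group. Over the genes tested, its Pearson correlation was 0.959 and 0.962 with B deficiency libraries 1 and 3, which correlated with each other at 0.976, as did each pair of control libraries at 0.975 to 0.976. This library also stood apart in the water channels. Among the 26 water channel genes tested, it had the highest of the 3 B deficiency values in 21, whereas this was so in 39.2% of all genes tested. Results are therefore also given without it. It was singled out by its values in these same data, and leaving it out can narrow the spread of its group. Adjusted p-values without it are thus a description and no independent support.

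Water channel transcripts were among the most abundant in the root tip. Of the 30 genes, 15 reached a mean of 100 FPKM, and 8 were among the 100 genes with the highest mean in the table. The highest was a TIP1-3-like gene (LOC103948949), which ranked 9th of all genes, followed by a PIP1-4 gene (LOC103942423), which ranked 10th. At the other end, 4 genes stayed under the minimum mean of 0.5 FPKM and were not tested. The TIP5-1 gene LOC103961992 and the aquaporin-like gene LOC103958477 were listed at 0 in all 6 libraries. The other TIP5-1 gene (LOC103963452) had 0.08, 0 and 0.15 FPKM under B deficiency, against 0.15, 0 and 0.15 FPKM in the control. TIP1-2-like (LOC103948868) reached at most 0.09 FPKM.

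**Figure D1:**
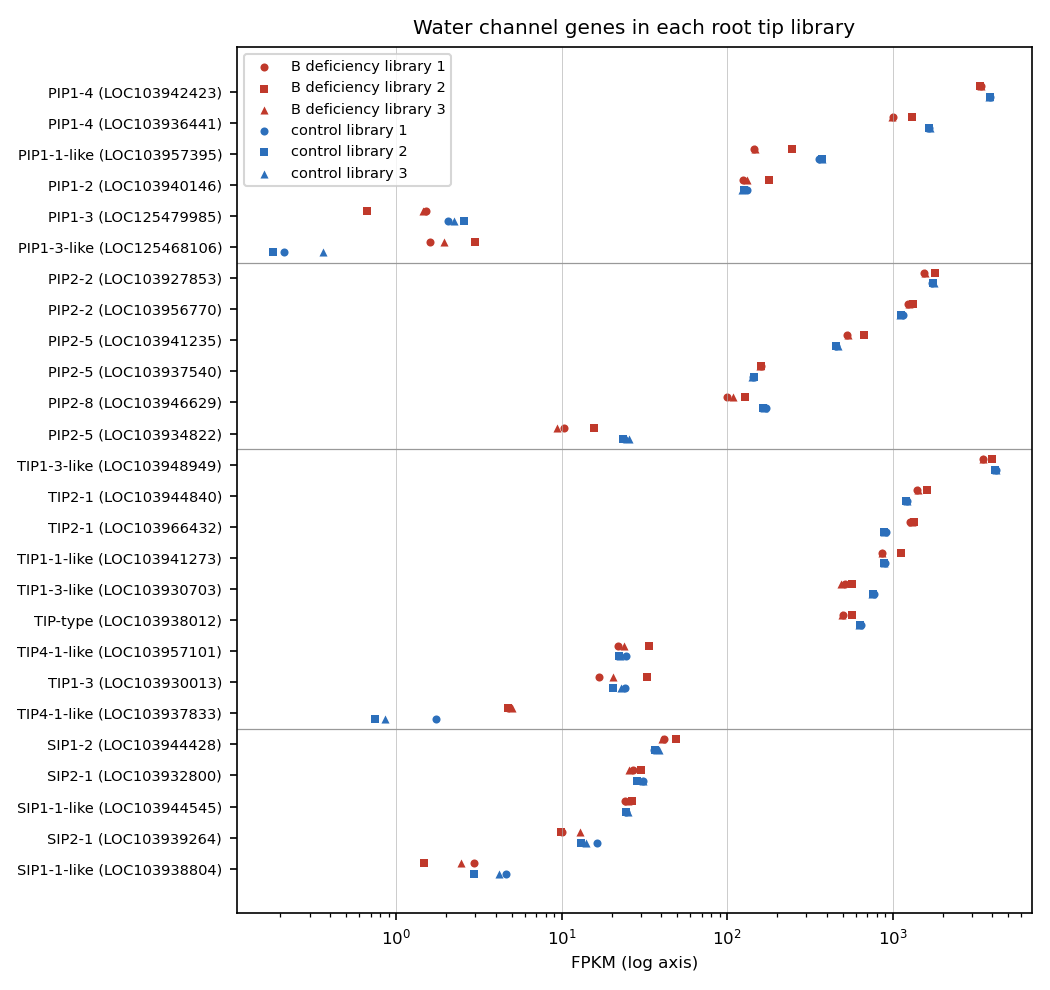
FPKM on a log axis for the 26 water channel genes tested, in 4 blocks by family and by mean level within each, with 1 point per library (red, 3 B deficiency libraries; blue, 3 control libraries). Levels span from 0.18 FPKM for PIP1-3-like (LOC125468106) in control library 2 to 4200 FPKM for TIP1-3-like (LOC103948949) in control library 3. The control points lie closer together than the B deficiency points in 24 of the 26 genes, and this was also so in 66.7% of all genes tested. That share is not matched for level. Over all genes whose mean reached 100 FPKM, the median log2 range was 0.185 under B deficiency and 0.0629 in the control. For the 15 water channels at that level it was 0.218 and 0.0384. Over all genes tested it was 0.302 and 0.196.

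Summed over the 30 genes, the FPKM came to 16476, 18605 and 16534 in B deficiency libraries 1, 2 and 3, against 18486, 18334 and 18420 in control libraries 1, 2 and 3. Libraries 1 and 3 of B deficiency thus lay below every control library, and library 2 lay above them. These sums made up 1.70%, 1.94% and 1.70% of all FPKM under B deficiency, and 1.93%, 1.93% and 1.94% in the control. Sums are given as a description without a test. In root tip tissue, fewer cells that express a gene and less RNA of it per cell cannot be told apart.

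Of the 4 families, PIP1 was the only one whose sums did not overlap between the groups. The 6 PIP1 genes summed to 4691, 5116 and 4684 FPKM under B deficiency, against 6014, 6017 and 6018 FPKM in the control, a ratio of the means of 0.803. The PIP2 sum of the genes that met the rule was 3577, 4109 and 3624 FPKM under B deficiency, against 3665, 3664 and 3674 FPKM in the control. In this sum library 2 lay above the control and the other libraries below it. TIP behaved in the same way, with 8103, 9263 and 8120 FPKM under B deficiency, against 8695, 8546 and 8615 FPKM in the control. The SIP genes were a minor part, with 106 to 117 FPKM under B deficiency, against 106 to 113 FPKM in the control.

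**Figure D2:**
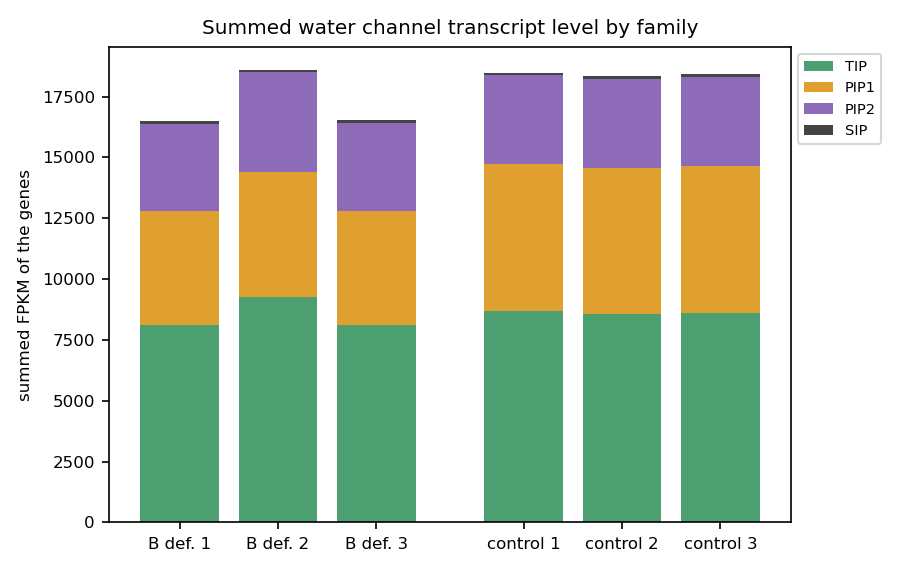
Stacked bars of the summed FPKM of TIP, PIP1, PIP2 and SIP genes in each library, the 3 B deficiency libraries at left and the 3 control libraries at right. The total of B deficiency library 2 (18605 FPKM) is close to those of the control, whereas libraries 1 and 3 lie lower, at 16476 and 16534 FPKM, and the PIP1 segment is shorter in all 3 B deficiency libraries.

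The make-up of this pool differed between the groups in all libraries, with library 2 close to the other B deficiency libraries. PIP1 took 28.5%, 27.5% and 28.3% of the summed water channel FPKM under B deficiency, against 32.5%, 32.8% and 32.7% in the control. PIP2 took 21.9% ± 0.188 under B deficiency, against 19.9% ± 0.0840 in the control (SD, n = 3 each). The 2 TIP2-1 genes together took 16.2%, 15.9% and 16.5% under B deficiency, against 11.6%, 11.4% and 11.4% in the control. The share of TIP2 was thus higher in every B deficiency library, whereas that of TIP1 was lower in each, with 29.96% ± 0.598 under B deficiency, against 31.8% ± 0.124 in the control (SD, n = 3 each). Shares of a whole depend on each other, since a lower share of PIP1 raises those of the other groups.

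**Figure D3:**
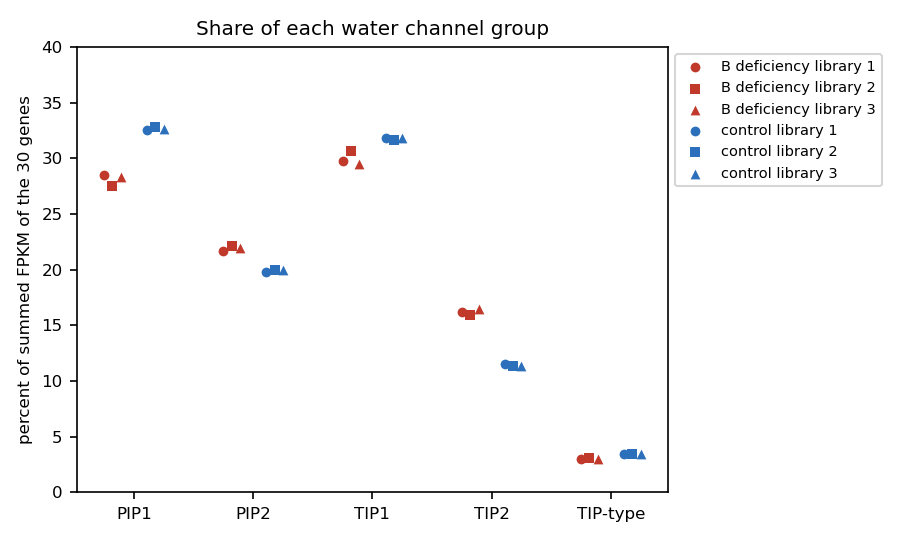
Share of the summed FPKM of the 30 genes taken by PIP1, PIP2, TIP1, TIP2 and the TIP-type gene, in percent, with 1 point per library (red, B deficiency; blue, control). The red points lie between 15.9% and 16.5% for TIP2, above the blue points at 11.4% to 11.6%, and between 27.5% and 28.5% for PIP1, below the blue points at 32.5% to 32.8%.

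Over single genes, changes went in both directions. Of the 26 genes tested, 7 rose, 7 fell and 12 did not pass the test, whereas 12.0% of all genes tested rose and 15.4% fell. Abundant genes pass more often, since 20.5% of the genes whose mean reached 100 FPKM rose and 19.0% fell. Of the 15 water channels at that level, 5 rose and 6 fell, mostly by less than 2-fold. The median log2 fold change was -0.04 over the 26 genes and -0.05 over all genes tested. Of the 26 genes, 4 were called, 2 higher and 2 lower, beside 4.37% and 3.83% of all genes tested. The B deficiency libraries lay above all control libraries in 8 genes and below all of them in 11, against 18.5% and 26.6% of all genes tested. Without B deficiency library 2, 7 genes rose and 11 fell, and all 14 genes that had passed with it were among them. In each of the 6 fits with a library left out, 3 of the rises and 5 of the falls passed. Shares over all genes are not given for the fits with a library left out. The 12.0% and 15.4% belong to the fit with all libraries, so the counts without library 2 cannot be set against them.

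**Figure D4:**
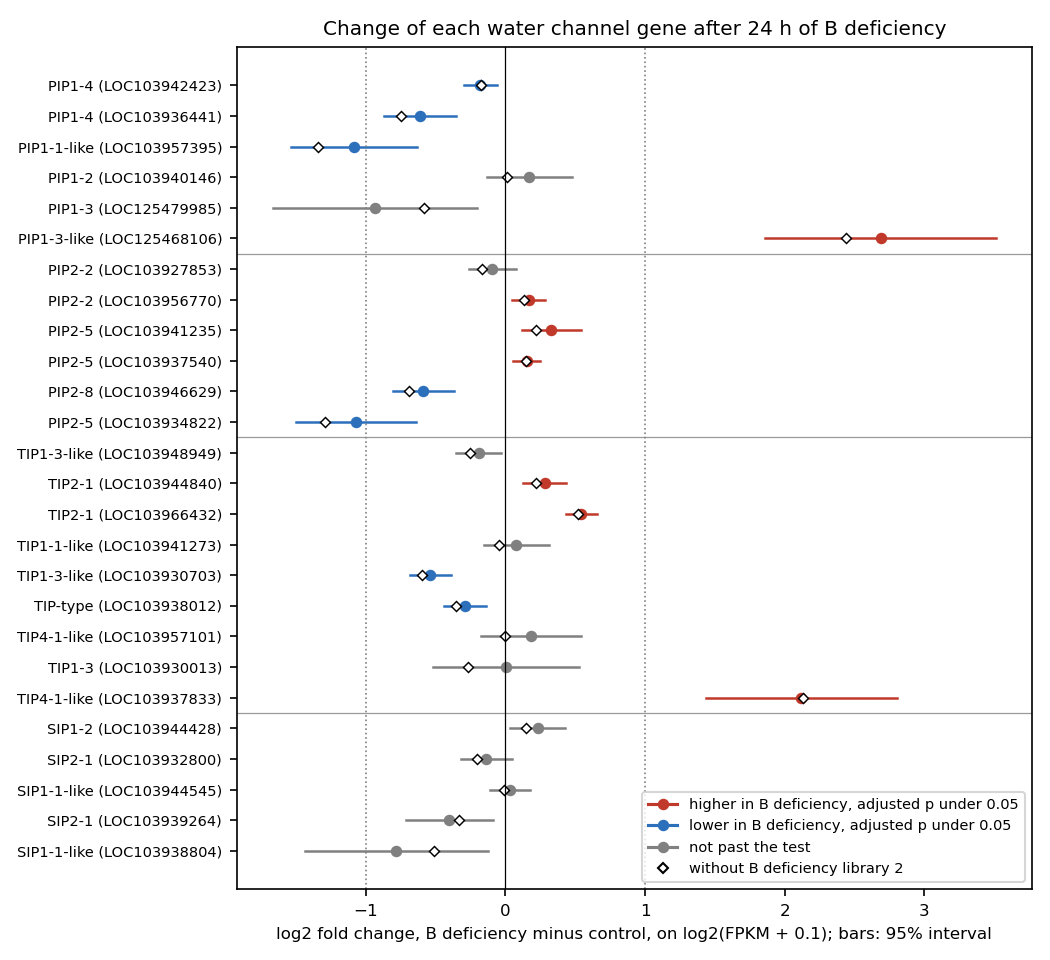
Log2 fold change (B deficiency minus control, on log2(FPKM + 0.1)) of the 26 genes tested, with 95% intervals from limma; red marks genes that rose, blue genes that fell and grey genes that did not pass, open diamonds give the value without B deficiency library 2, and dotted lines mark a 2-fold change. PIP1-3-like (LOC125468106) at 2.69 and TIP4-1-like (LOC103937833) at 2.12 lie far right of all others, and most changes are smaller than 2-fold.

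PIP1 proteins of maize reach the plasma membrane mainly together with PIP2 proteins and have little water channel activity of their own in frog oocytes. Of the 6 PIP1 genes, 3 fell and 1 rose. PIP1-1-like (LOC103957395) had 145, 247 and 148 FPKM under B deficiency, against 360, 376 and 374 FPKM in the control. Every B deficiency library lay below every control library, and library 2 was the one nearest to the control. The log2 fold change was -1.09 ± 0.192 (SE, limma adjusted p = 0.00600), and without library 2 it was -1.34. This gene was called, although without B deficiency library 1 or 3 its fold change was under the minimum.

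Both PIP1-4 genes fell. LOC103936441 had 1000, 1312 and 984 FPKM under B deficiency, against 1652, 1658 and 1675 FPKM in the control. The groups did not overlap, and the log2 fold change was -0.61 ± 0.109 (SE, limma adjusted p = 0.00631). LOC103942423, the most abundant PIP gene, had 3418, 3374 and 3417 FPKM under B deficiency, against 3869, 3854 and 3844 FPKM in the control. Here the 3 libraries of each group lay close together and B deficiency library 2 did not stand out. The change was small, with a log2 fold change of -0.18 ± 0.0499 (SE, limma adjusted p = 0.0348), and it passed in 1 of the 6 fits with a library left out. With median-of-ratios scaling it was -0.13 and did not pass (limma adjusted p = 0.0938). With quantile normalization it was -0.31 and passed (limma adjusted p = 0.00167). The fall also passed with library weights (0.00295), a minimum of 1 FPKM (0.0244) and a pseudocount of 0.01 (0.0408) or 1 (0.0405). It did not pass with no minimum (0.162), without the trend (0.0763) or with the replicate number as a block (0.138). The ratio of LOC103942423 to LOC103936441 was 3.42, 2.57 and 3.47 under B deficiency, against 2.34, 2.32 and 2.29 in the control, so the balance of the 2 genes differed in every library.

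PIP1-3-like (LOC125468106) had the highest log2 fold change of the water channels at the pseudocount of 0.1, at a low level. It had 1.59, 2.99 and 1.94 FPKM under B deficiency, against 0.21, 0.18 and 0.36 FPKM in the control. All B deficiency libraries lay above all control libraries, and the log2 fold change was 2.69 ± 0.352 (SE, limma adjusted p = 0.00167). It stayed between 2.44 and 2.90 with each library left out, but was 1.32 with a pseudocount of 1, where TIP4-1-like (LOC103937833) was higher at 1.5, and 3.08 with a pseudocount of 0.01. The database entries of this gene and of PIP1-1-like both recur among those of the gene model described as PIP1-2 (LOC103940146). Reads from such similar sequences are divided among the models by estimation, so their single values are less certain. The PIP1-2 model also carries a domain of another protein, Cdc14, and so may join neighbouring genes. It had 125, 179 and 131 FPKM under B deficiency, against 132, 127 and 122 FPKM in the control, and its log2 fold change of 0.17 did not pass (adjusted p = 0.371, limma). Without library 2 it was 0.01. PIP1-3 (LOC125479985) had 1.52, 0.67 and 1.45 FPKM under B deficiency, against 2.07, 2.57 and 2.22 FPKM in the control. Its groups did not overlap, but the difference did not pass (log2 fold change -0.93 ± 0.312 SE, limma adjusted p = 0.0637). Without library 2, the lowest of all, it was -0.59 and passed (adjusted p = 0.0461), as it did with library weights (0.0430) and with a pseudocount of 1 (0.0486).

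PIP2 proteins are the efficient water pores of the plasma membrane, and PIP2-2 contributes to the water uptake of Arabidopsis roots. Of the 6 PIP2 genes, 3 rose and 2 fell. The falls were the larger changes. PIP2-5 (LOC103934822) had 10.3, 15.8 and 9.35 FPKM under B deficiency, against 23.8, 23.4 and 25.4 FPKM in the control. The groups did not overlap, and the log2 fold change was -1.07 ± 0.182 (SE, limma adjusted p = 0.00522). As for PIP1-1-like, the minimum fold was not reached without B deficiency library 1 or 3, where the smallest change was -0.92, and without library 2 it was -1.29. PIP2-8 (LOC103946629) had 99.4, 129 and 108 FPKM under B deficiency, against 173, 163 and 167 FPKM in the control. This fall did not reach 2-fold (log2 fold change -0.59, standard error 0.0928), and it passed whichever library was left out (adjusted p = 0.00378 with all libraries, limma).

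The 3 rises in PIP2 were small. Another PIP2-5 gene (LOC103941235) had 530, 667 and 536 FPKM under B deficiency, against 453, 453 and 465 FPKM in the control. The groups did not overlap, with a log2 fold change of 0.33 ± 0.0899 (SE, limma adjusted p = 0.0327) and of 0.22 without library 2. It passed in 3 of the 6 fits with a library left out, and neither without the trend (adjusted p = 0.0794) nor with quantile normalization (0.0633). PIP2-2 (LOC103956770) had 1236, 1329 and 1249 FPKM under B deficiency, against 1157, 1129 and 1110 FPKM in the control, a log2 fold change of 0.17 (adjusted p = 0.0485 from limma). It was just past the threshold and passed in 1 of the 6 fits with a library left out. With quantile normalization the log2 fold change was 0.03 and did not pass (adjusted p = 0.621, limma). With median-of-ratios scaling it was 0.22 and passed (adjusted p = 0.0199, limma). It also passed with library weights (0.0129) and a minimum of 1 FPKM (0.0428). The rise did not pass with no minimum (0.101), without the trend (0.123) or with the replicate number as a block (0.127). Nor did it with a pseudocount of 0.01 (0.0515) or 1 (0.0513). The other PIP2-2 gene (LOC103927853), the most abundant of the PIP2 genes, had 1541, 1809 and 1563 FPKM under B deficiency, against 1716, 1750 and 1765 FPKM in the control. In this gene library 2 lay above the control and libraries 1 and 3 lay below it, and the log2 fold change of -0.09 (95% interval -0.26 to 0.07, adjusted p = 0.372 from limma) did not pass. Without library 2 it was -0.17 (limma adjusted p = 0.000572), the only pass among the 6 fits with a library left out. The ratio of LOC103927853 to LOC103956770 was 1.25, 1.36 and 1.25 under B deficiency, against 1.48, 1.55 and 1.59 in the control, so both genes were closer in level in every B deficiency library.

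The gene model LOC103937540 is described both as PIP2-5 and as subunit G of the V-type proton ATPase, a pump of the tonoplast. It had 160, 160 and 158 FPKM under B deficiency, against 142, 145 and 142 FPKM in the control, and its log2 fold change of 0.15 ± 0.0418 (SE) passed (limma adjusted p = 0.0338). Its B deficiency values were the closest together of all PIP2 genes, with no deviation in library 2. How much of its signal is aquaporin cannot be told from these values. It passed in 1 of the 6 fits with a library left out. Its PIP2-5 entry is the same as that of LOC103934822, which fell. Between the other PIP2-5 gene, LOC103941235, and LOC103934822 the ratio was 51.5, 42.3 and 57.4 under B deficiency, against 19.0, 19.4 and 18.3 in the control.

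TIP1 proteins are the main water channels of the vacuole in many tissues. Of the 5 TIP1 genes, 4 were tested, 1 fell and none rose. The TIP1-3-like gene LOC103930703 had 518, 569 and 489 FPKM under B deficiency, against 771, 758 and 751 FPKM in the control. All B deficiency libraries lay below the control, with a log2 fold change of -0.54 ± 0.0630 (SE, limma adjusted p = 0.00102). It stayed between -0.60 and -0.49 with each library left out. The TIP1-3-like gene LOC103948949, the most abundant water channel, had 3505, 3981 and 3496 FPKM under B deficiency, against 4192, 4132 and 4200 FPKM in the control. Its groups did not overlap either, but the log2 fold change of -0.19 ± 0.0682 (SE) did not pass (limma adjusted p = 0.0760). Without library 2 it was -0.25 and passed (limma adjusted p = 2.43e-05), the only pass among the 6 fits with a library left out. Relative to LOC103930703 its level was 6.77, 7.002 and 7.15 times as high under B deficiency, against 5.43, 5.45 and 5.59 times in the control, and here library 2 lay between the others. In Arabidopsis, TIP1-3 is known from pollen, whereas here the genes of this name were expressed in root tips.

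TIP1-1-like (LOC103941273) had 867, 1116 and 867 FPKM under B deficiency, against 899, 887 and 891 FPKM in the control. Library 2 lay above the control and the others below it, so that the log2 fold change was 0.08 with all libraries (adjusted p = 0.596, limma) and -0.04 without library 2. TIP1-3 (LOC103930013) had 16.8, 32.7 and 20.5 FPKM under B deficiency, against 24.0, 20.4 and 22.7 FPKM in the control. Its groups overlapped, and the 95% interval of its log2 fold change was -0.52 to 0.53. The gene described as TIP-type (LOC103938012) had 499, 571 and 497 FPKM under B deficiency, against 646, 638 and 629 FPKM in the control. It fell without overlap of the groups (log2 fold change -0.29 ± 0.0640 SE, limma adjusted p = 0.0147), and it passed in 1 of the 6 fits with a library left out.

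TIP2-1 of Arabidopsis conducts ammonia as well as water. Both TIP2-1 genes rose. LOC103966432 had 1273, 1343 and 1300 FPKM under B deficiency, against 909, 890 and 885 FPKM in the control. The lowest B deficiency library was above the highest control library, and the log2 fold change was 0.54 ± 0.0469 (SE, limma adjusted p = 0.000265). This was the lowest adjusted p of all water channels, and with each library left out the change stayed between 0.52 and 0.56. LOC103944840 had 1397, 1613 and 1422 FPKM under B deficiency, against 1227, 1198 and 1212 FPKM in the control. The groups did not overlap here either (log2 fold change 0.28 ± 0.0656 SE, limma adjusted p = 0.0180), and the rise passed in 3 of the 6 fits with a library left out. The ratio of LOC103944840 to LOC103966432 was 1.10, 1.201 and 1.09 under B deficiency, against 1.35, 1.35 and 1.37 in the control, so the 2 genes were closer to equal under B deficiency.

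TIP4-1 of Arabidopsis can carry urea. One of the TIP4-1-like genes (LOC103937833) had 4.76, 4.77 and 5.02 FPKM under B deficiency, against 1.73, 0.74 and 0.86 FPKM in the control. It was called higher (log2 fold change 2.12 ± 0.291 SE, limma adjusted p = 0.00207), and its B deficiency values lay within a narrow range. The other TIP4-1-like gene (LOC103957101) was more abundant, with 21.99, 33.7 and 23.9 FPKM under B deficiency, against 24.3, 22.2 and 22.4 FPKM in the control. Here only library 2 lay above the control, and the log2 fold change of 0.18 did not pass (adjusted p = 0.416, limma) and was -0.0016 without library 2. The more abundant gene had 4.62, 7.06 and 4.76 times the level of the other under B deficiency, against 14.0, 30.04 and 26.02 times in the control. The 2 TIP4-1-like genes summed to 26.8, 38.4 and 28.9 FPKM under B deficiency, against 26.03, 23.0 and 23.2 FPKM in the control. They remained a small part of the TIP pool.

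None of the 5 SIP genes passed the test with all libraries, although 1 fell without library 2. SIP1-1 and SIP1-2 of Arabidopsis are water channels, whereas water transport was low for SIP2-1. SIP1-2 (LOC103944428) had 41.7, 49.1 and 40.3 FPKM under B deficiency, against 36.0, 36.7 and 38.7 FPKM in the control. The groups did not overlap, but the log2 fold change of 0.23 ± 0.0839 (SE) did not pass (limma adjusted p = 0.0813), and it passed with median-of-ratios scaling (adjusted p = 0.0490). SIP2-1 (LOC103932800) had 27.0, 29.99 and 25.5 FPKM under B deficiency, against 30.9, 28.5 and 31.2 FPKM in the control, with overlapping groups and a 95% interval of the log2 fold change from -0.32 to 0.05. Without library 2 its log2 fold change was -0.20 and passed (limma adjusted p = 0.0445). SIP1-1-like (LOC103944545) was nearly the same in both groups, with 24.2, 26.6 and 25.0 FPKM under B deficiency, against 24.4, 24.6 and 25.1 FPKM in the control, and the 95% interval of its log2 fold change was -0.11 to 0.18. The weaker genes of the same names, SIP2-1 (LOC103939264) and SIP1-1-like (LOC103938804), had log2 fold changes of -0.40 and -0.78 (adjusted p = 0.0634 and 0.0778, limma), and neither passed without library 2 (adjusted p = 0.108 and 0.112).

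The description rule left out genes that carry the major intrinsic protein domain of aquaporins under another name. Besides NIP genes, 4 were found, and 2 of these were listed at 0 in every library. LOC103937187, described as plasma membrane intrinsic protein 2-2, had 192, 142 and 182 FPKM under B deficiency, against 116, 121 and 115 FPKM in the control. It rose with a log2 fold change of 0.54 ± 0.109 (SE, limma adjusted p = 0.0104), and in contrast to most water channels library 2 was the lowest of its group. LOC103965591, a hypothetical protein, had 36.6, 54.0 and 34.5 FPKM under B deficiency, against 38.1, 40.6 and 43.5 FPKM in the control, with a log2 fold change of 0.01 (limma adjusted p = 0.983).

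Water moves through aquaporins along gradients that proton pumps and solutes maintain, and SNARE proteins bring PIPs to the plasma membrane, so genes of these kinds were also counted. Of the 5 NIP genes tested, 2 rose and 1 fell, and NIP5-1 (LOC103962656), the boric acid channel, had the largest log2 fold change of 2.53. Of 42 genes for tonoplast proton pumps tested, 6 rose, 5 fell and none was called, with a median log2 fold change of 0.01. The largest rise was in vacuolar proton ATPase a3-like (LOC125479292, 0.58) and the largest fall in V-type proton ATPase subunit F (LOC125472074, -0.39). Of 11 plasma membrane proton ATPase genes, 5 rose and 1 fell. Among these, plasma membrane ATPase 1-like (LOC103942434) rose to 1.32 ± 0.421 FPKM under B deficiency, against 0.107 ± 0.0586 FPKM in the control (SD, n = 3 each), and plasma membrane ATPase 4-like (LOC125480830) fell to 75.1 ± 10.7 FPKM, against 92.9 ± 1.97 FPKM in the control (SD, n = 3 each).

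Of 52 SNARE genes tested, 9 rose and 3 fell. The largest rise was in syntaxin-131 (LOC125475390, log2 fold change 1.77) and the largest fall in VAMP722-like (LOC103966001, -3.54). Syntaxin-131 had 4.7, 1.49 and 1.96 FPKM under B deficiency, against 0.63, 0.74 and 0.54 FPKM in the control. VAMP722-like had 0, 0.22 and 0 FPKM under B deficiency, against 1.53, 1.72 and 1.61 FPKM in the control. At these levels the size of its fall depends on the pseudocount. Of 23 genes described as dehydrins, LEA proteins, osmotins or enzymes of protective solutes, 8 rose and 2 fell, of which 6 were called higher and 1 lower, beside 4.37% and 3.83% of all genes tested. Dehydrin COR47-like (LOC125472441) had 10.9, 11.2 and 13.2 FPKM under B deficiency, against 0.33, 0 and 0 FPKM in the control, and galactinol synthase 2-like (LOC103959028) fell with a log2 fold change of -2.33. The counts of each group stand beside the 12.0% and 15.4% of all genes tested that rose and fell.

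Water channels differ in level along the root, so markers of its zones were also counted. Their counts stand beside the 12.0% and 15.4% of all genes tested that rose and fell. Several of the sets hold few genes. Of the root tip markers listed, 27 of 32 were tested, of which 4 rose and 7 fell, and they summed to 279 to 327 FPKM under B deficiency, against 298 to 310 FPKM in the control. They included 8 of 9 meristem genes of the AIL, PLT and BBM kinds and all 4 root cap genes (SOMBRERO, BEARSKIN). Of the root cap genes, 3 fell and none rose, and their sum was 17.95 to 24.6 FPKM under B deficiency and 34.1 to 35.7 FPKM in the control. Of 6 Casparian strip genes tested, markers of the endodermis, 4 rose and none fell, with sums of 124 to 168 FPKM under B deficiency, against 113 to 119 FPKM in the control. The root hair gene expansin-A7-like had 1.84 to 2.43 FPKM under B deficiency and 8.28 to 12.3 FPKM in the control. Of 8 SHORT-ROOT and SCARECROW genes tested, regulators of the ground tissue and endodermis, 1 fell and none rose, with sums of 46.8 to 54.4 FPKM under B deficiency, against 59.02 to 62.3 FPKM in the control. Of the meristem genes, 2 fell and none rose, with sums of 73.8 to 83.9 FPKM under B deficiency, against 83.1 to 85.9 FPKM in the control. Of 55 leaf markers, 27 were tested, of which 1 rose and 9 fell, and their sums were 613 to 673 FPKM under B deficiency, against 640 to 666 FPKM in the control. Of the 55, 7 were listed at 0 in all libraries, and the 5 RuBisCO small chain genes, 2 of them at 0, had sums of 508 to 583 FPKM under B deficiency, against 509 to 545 FPKM in the control. Whether the make-up of the tissue had a part in the water channel results was not tested.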

How the data were processed

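RNA-seq libraries of root tips, 3 from B deficiency and 3 from the control, were analysed. By the study's methods, the authors aligned reads with STAR to the genome of P. bretschneideri and obtained FPKM from RSEM, whereas the submitters' processing notes name HISAT2 and Cufflinks. The deposited FPKM have 2 decimals and stand in 2 tables with identical library columns. The authors' group means and ratios were not used. Control columns carry numbers, which were set against the replicate numbers of the labels. Fragment counts were not analysed here, so no counting interval is given, and DESeq2, the test of the study, was replaced by limma (version 3.58.1, R 4.3.3; lmFit, eBayes with a trend) on log2(FPKM + 0.1), B deficiency minus control. The pseudocount makes the fold changes of weakly expressed genes too small. Genes were tested where their mean reached 0.5 FPKM, and were called at a log2 fold change that reached 1 in either direction with an adjusted p under 0.05. With 3 libraries per group, permuting 1 gene exactly gives p = 0.1 at best. The limma script was checked on simulated data with known changes of more than 2-fold and the same spread in all libraries. This check of the code does not cover smaller changes or a library that stands apart. The genes, the lists and the rule for named genes (all called, the most abundant of each family, and the 8 largest rises and falls) were chosen with earlier results of these data known. Alternatives covered the pseudocount, the minimum, scaling, trend, weights, the choice of genes, a replicate block and each library left out. No sequences or coordinates are shown. Python 3.11.15, pandas 2.3.3 and matplotlib 3.10.9 were used for tables and plots.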

Additional observations from a re-analysis of the deposited data

How the results depend on the processing

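The 2 genes called higher were called under every alternative run. The 2 called lower were both lost without B deficiency library 1 and without library 3, so that 0 to 2 genes were called lower with a library left out. In place of 7, the number of genes that rose was 3 without the trend, 4 with quantile normalization and 3 to 7 with a library left out. The lower limit of 3 was reached without each of the control libraries. Between 5 and 11 genes fell with a library left out, the highest without B deficiency library 2. No shares over all genes are given beside these counts. With the replicate number as a block, 4 genes rose in place of 7, and SIP1-1-like (LOC103938804) passed (adjusted p = 0.0221). Same-numbered libraries did not deviate together (correlations of 0.0403, 0.0349 and -0.00477 over the genes tested). A small shared effect would leave little trace in such correlations, and the labels do not state a pairing. Whether the numbers pair the libraries thus remains undecided. The log2 ratio of the PIP1 sum was -0.32, and it was -0.27 with median-of-ratios scaling. Without the most abundant gene of each family it was -0.60 for PIP1, 0.15 for PIP2, 0.12 for TIP and -0.15 for SIP. With a library left out, the sums gave -0.36 to -0.30 for PIP1, -0.03 to 0.08 for PIP2, -0.09 to 0.01 for TIP and -0.06 to 0.02 for SIP. The sign changed for TIP1-1-like (LOC103941273), with -0.011 with library weights, -0.018 with quantile normalization and -0.042 to 0.14 with a library left out, the lowest without B deficiency library 2. It also changed for SIP1-1-like (LOC103944545), with -0.0063 to 0.063 with a library left out, the lowest without that library. For the tested genes picked by the naming rule, over the alternative fits, direction and side of the threshold stayed in 273 fits. A pass was lost in 44 and gained in 9, and the sign changed in 4. TIP4-1-like (LOC103957101), TIP1-3 (LOC103930013), SIP2-1 (LOC103939264) and SIP1-1-like (LOC103938804) were outside these counts. Without B deficiency library 2, the log2 fold change turned from 0.18 to -0.0016 for LOC103957101 and from 0.0053 to -0.27 for LOC103930013. Choosing the genes by protein domain, or leaving out the 2 joined gene models (chosen after seeing the data), gave 8 and 6 rises and 7 falls each. Beyond the way each alternative was built, the causes were not tested. The study lists the reads of each library, but FPKM do not give the number of fragments behind a gene. Genes under 0.5 FPKM were therefore not tested in the main fit. In the fit without a minimum, TIP1-2-like (LOC103948868) and TIP5-1 (LOC103963452) did not pass (limma adjusted p = 0.983 and 0.854).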
